A study of Canis lupus familiaris with 6 samples.

Results

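Mitochondrial ribosomal proteins are encoded in the nucleus, made in the cytosol and imported into mitochondria. There they build, with rRNA made from mitochondrial DNA, a ribosome of a large and a small subunit that translates the few mRNAs of the mitochondrial genome, all of which code for subunits of the respiratory chain and ATP synthase. Many members descend from bacterial ribosomal proteins and others arose later in mitochondria, and kidney tubule epithelium, which transports solutes at a high energy cost, is known as a tissue rich in mitochondria. Members were the probe sets with a single gene symbol made of MRPL or MRPS, a number and at most 1 letter. This took 162 of 42924 probe sets, which stood for 73 of 15115 named genes. A further probe set that lists MRPS22 with a second gene was left out.

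Transcripts were measured with canine Affymetrix arrays. The cells were MDCKII, an established epithelial line derived from dog kidney (Madin-Darby), harvested 36 h after plating in 60 mm dishes. In 3D, 3 samples were plated on a thin layer of 100 µl Matrigel, a basement membrane extract, with 2% Matrigel in the medium, where the cells form cysts. In 2D, 3 samples grew on plastic without Matrigel as a polarized monolayer. All 6 samples are the same cell line with no other treatment in the labels, which call the replicates biological, and the design asks which genes differ when cells build a lumen. The values are log2 levels per probe set. The 4 arrays of replicates 2 and 3 have like distributions, so between them a change in total RNA per cell could not be seen, and fewer cells of a kind cannot be told apart from less RNA per cell.

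The arrays did not share 1 scale. On replicates 2 and 3 the medians over all probe sets were 7.07 and 7.08 in 3D and 7.06 on both arrays in 2D. On replicate 1 they were 5.26 in 3D and 5.42 in 2D, with 413 and 246 values below 0. Differences were therefore tested with limma on replicates 2 and 3 (n = 2 arrays per group), and the replicate 1 difference is given beside them as 1 untested value. All 8 measured epithelial markers, CDH1, EPCAM, KRT8 and KRT18 among them, lay above the median of probe set means, at 8.73 to 13.9. Of 8 fibroblast markers 2 lay above it, and of 4 leukocyte and 4 endothelial markers 1 each. None of these markers passed the limma test at an adjusted p under 0.05.

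The family was bright and moved little. On replicates 2 and 3 the brightest probe set of each gene, which stands for the gene here, had levels of 6.56 to 12.8 with a median of 10.99, and 72 of 73 lay above the median of all probe set means (7.07). The median member level was 10.93 and 10.91 on the 3D arrays, against 11.05 and 11.09 on the 2D arrays. The log2 fold changes (3D minus 2D) ran from -0.655 for MRPL19 to 0.76 for MRPL36, with a median of -0.12, beside -0.01 over all genes. Of the 73 genes, 46 were below 0 (63.0%, against 51.4% of all genes).

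With limma, 9 of the 162 probe sets passed an adjusted p of 0.05. This is 5.56% of them, close to the 6.61% called among all probe sets. In 3D 2 of 162 were higher, a share under the 3.65% of all probe sets, and 7 of 162 were lower, above the 2.96%. Among genes 3 of 73 passed (4.11%), against 7.28% of all genes. MRPL36 was higher (1 of 73, under the 4.17% of all genes), and MRPL19 and MRPS22 were lower (2 of 73, under the 3.12%). At an unadjusted limma p under 0.05 there were 24 members (32.9%), against 25.1% of all genes, a share against which the unadjusted counts of the small groups below may be read. Counted in either direction, the share of members that passed the adjusted threshold was thus near or under that of the whole table. The share of probe sets that passed as lower was above that of all probe sets. These probe sets belong to MRPL19 (3), MRPL3 (2), MRPS22 (1) and MRPL21 (1) alone, so genes were counted repeatedly. By gene, the share that passed as lower was under that of all genes. The unadjusted share of genes was also above, with 16 lower and 8 higher in 3D, beside 1902 and 1896 of all 15115 genes. At the median standard error of the members, a log2 difference of about 0.565 was needed to pass. The 95% interval of the difference lay between -1 and 1 for 71 of 73 genes and within 0.5 of 0 for 36.

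When 1 array was dropped, whichever of 3D replicate 2, 2D replicate 2, 3D replicate 3 and 2D replicate 3 it was, 0 calls were left by limma among all probe sets, while 4683 to 10892 of them had an unadjusted p below 0.05. The calls below therefore rest on all 4 arrays together. Their signs held in each of these fits.

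**Figure D1:**
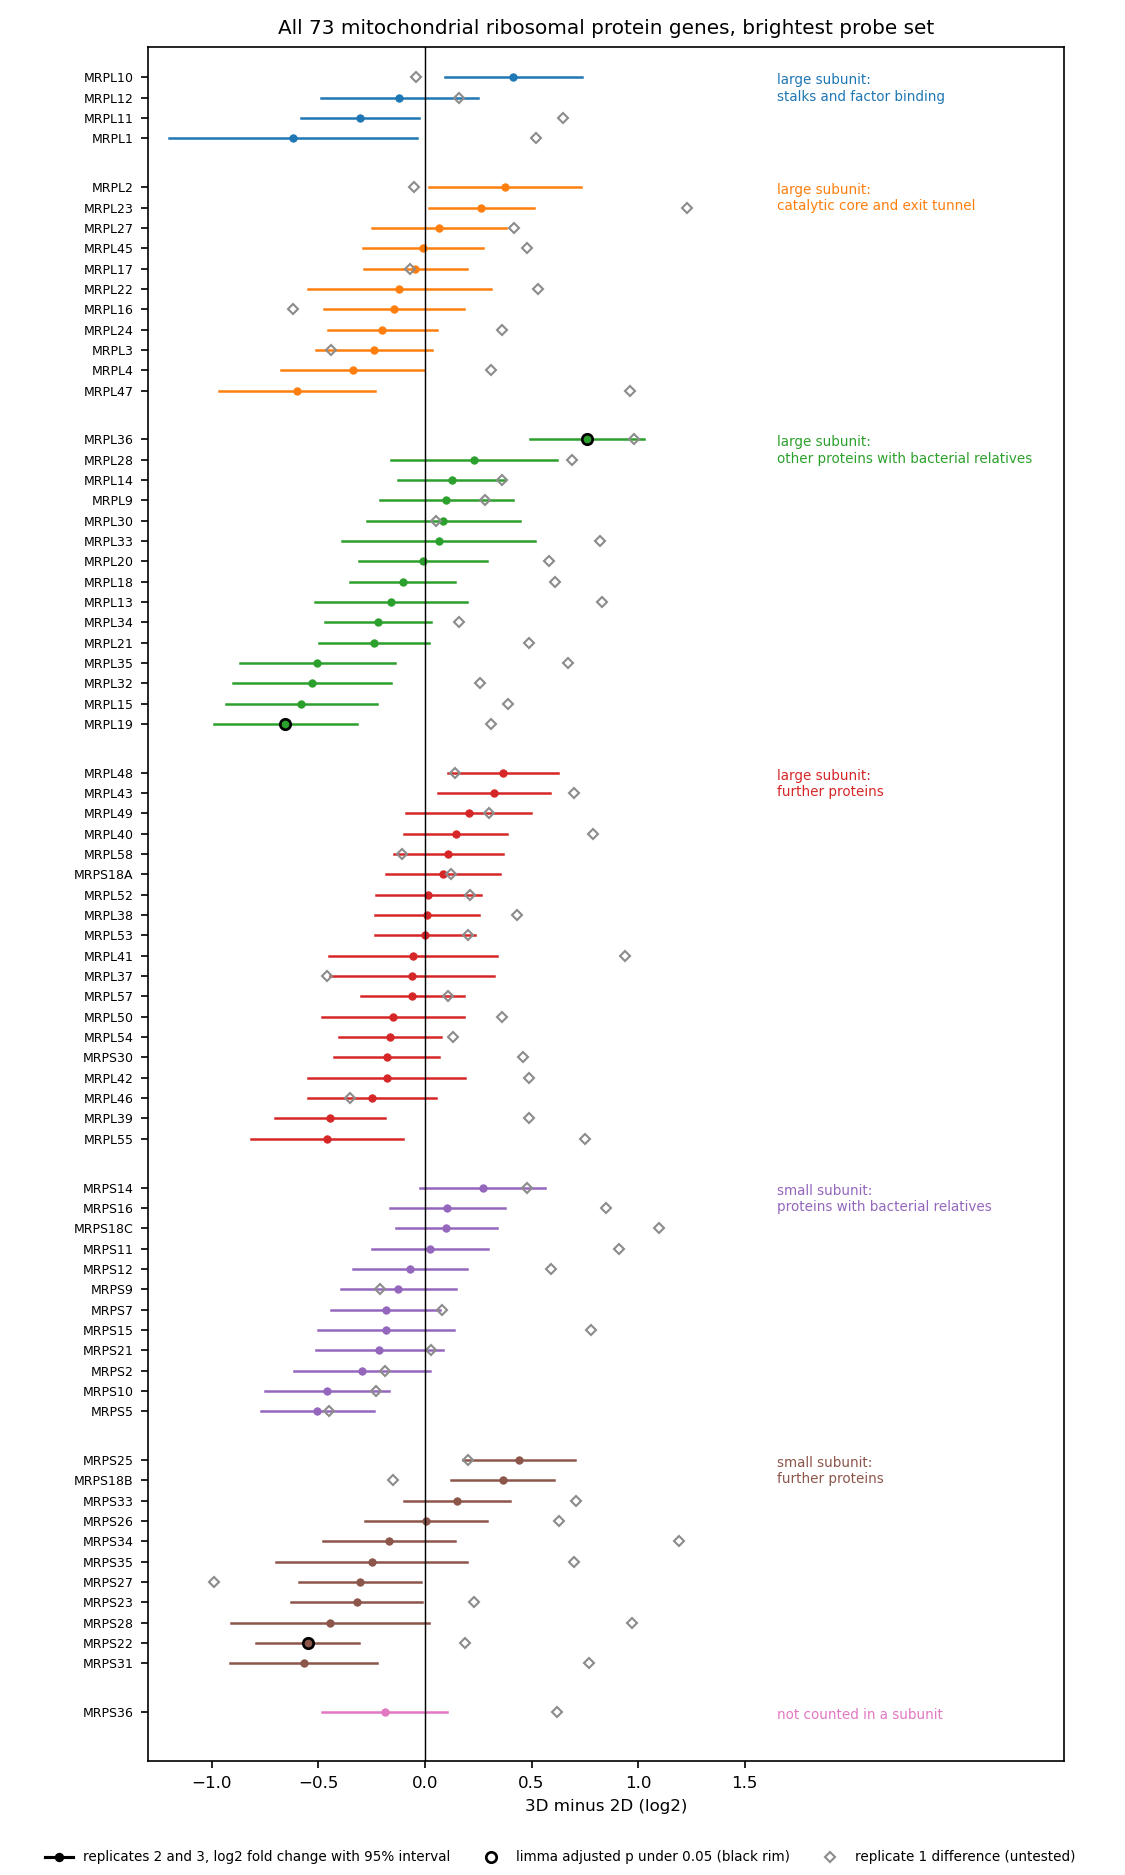
Log2 difference, 3D minus 2D, of all 73 genes, grouped by their place in the ribosome. Filled points with bars are the limma estimate and 95% interval on replicates 2 and 3 (n = 2 arrays per group), a black rim marks the 3 called genes, and open diamonds are the untested replicate 1 difference. Most points lie left of 0 (46 of 73), while most diamonds lie right of it (59 of 73).

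MRPL36, a small zinc-binding protein of the large subunit with a bacterial relative, was the member that rose. Its brighter probe set read 13.30 and 13.12 in 3D, against 12.43 and 12.47 in 2D. It was also the brightest member of the family. The replicate 1 pair, on its own scale, read 11.73 in 3D and 10.75 in 2D. On replicates 2 and 3 the groups did not overlap. The replicate 1 difference was above 0 too, as it was for 59 of the 73 members. The log2 fold change was 0.76 (SE 0.110, limma adjusted p = 0.0197 with 2 arrays per group), a 1.69-fold difference, and 0.98 in replicate 1.

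The second MRPL36 probe set read 11.90 and 11.58 in 3D, against 11.03 and 11.08 in 2D, and passed as well (0.685, SE 0.134, limma adjusted p = 0.0408). Its replicate 1 difference was 1.29. The names of both probe sets share a stem, so they may read the same transcript region and are not independent evidence. Without 2D replicate 2 and without 2D replicate 3 the limma adjusted p of the brighter probe set was 0.415 and 0.421. Without 3D replicate 2 it was 0.180 and without 3D replicate 3 it was 0.0921.

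MRPL19, whose bacterial relative lies where the large subunit meets the small one, fell on all 3 of its probe sets. The brightest read 10.50 and 10.83 in 3D, against 11.28 and 11.36 in 2D. The log2 fold change was -0.655 (SE 0.137, limma adjusted p = 0.0478), 1.57-fold lower in 3D. The limma adjusted p was 0.0552 under trend and robust priors, and 0.0921 to 0.458 with 1 array left out, lowest without 3D replicate 3 and highest without 2D replicate 3. The other 2 probe sets gave -0.715 (limma adjusted p = 0.0293) and -0.70 (limma adjusted p = 0.0242). Replicate 1 had the opposite sign on all 3, with differences of 0.22 to 0.57.

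MRPL3, a large-subunit protein whose bacterial relative reaches towards the catalytic centre, fell on 2 of its 3 probe sets. One of them read 11.62 and 11.63 in 3D, against 12.26 and 12.17 in 2D, and the other 9.61 and 9.51 in 3D, against 10.22 and 10.21 in 2D. Their log2 fold changes were -0.59 (SE 0.0998, limma adjusted p = 0.0291) and -0.655 (SE 0.101, limma adjusted p = 0.0229). The names of these 2 share a stem as well. The brightest MRPL3 probe set did not pass, with 12.16 and 12.35 in 3D against 12.52 and 12.47 in 2D (-0.24, SE 0.112, limma adjusted p = 0.267). The 3 replicate 1 differences ran from -0.44 to -0.40. MRPL3 was therefore lower in 3D on each probe set and on both scales. As the mean of its probe sets it passed (-0.495, limma adjusted p = 0.0349). That mean holds the 2 probe sets that had passed, so it is not separate evidence.

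MRPS22, a small-subunit protein without a bacterial relative, in which mutations cause mitochondrial disease in humans, has a single probe set and fell. It read 10.51 and 10.44 in 3D, against 11.01 and 11.04 in 2D. The log2 fold change was -0.55 (SE 0.0988, limma adjusted p = 0.0333), 1.46-fold lower in 3D. With 1 array left out its limma adjusted p was 0.104 to 0.424, lowest without 3D replicate 3 and highest without 2D replicate 3. Replicate 1 gave 9.62 in 3D and 9.43 in 2D, a difference of 0.19 in the other direction.

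MRPL21, a large-subunit protein with a bacterial relative, passed on the dimmest of its 4 probe sets alone. That one read 6.22 and 6.21 in 3D, against 6.68 and 6.81 in 2D (-0.53, limma adjusted p = 0.0406), below the median of all probe sets. The brightest, with 12.21 and 12.07 in 3D against 12.41 and 12.35 in 2D, did not pass (-0.24, limma adjusted p = 0.244). The replicate 1 differences of its 4 probe sets were above 0, at 0.29 to 0.53.

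**Figure D2:**
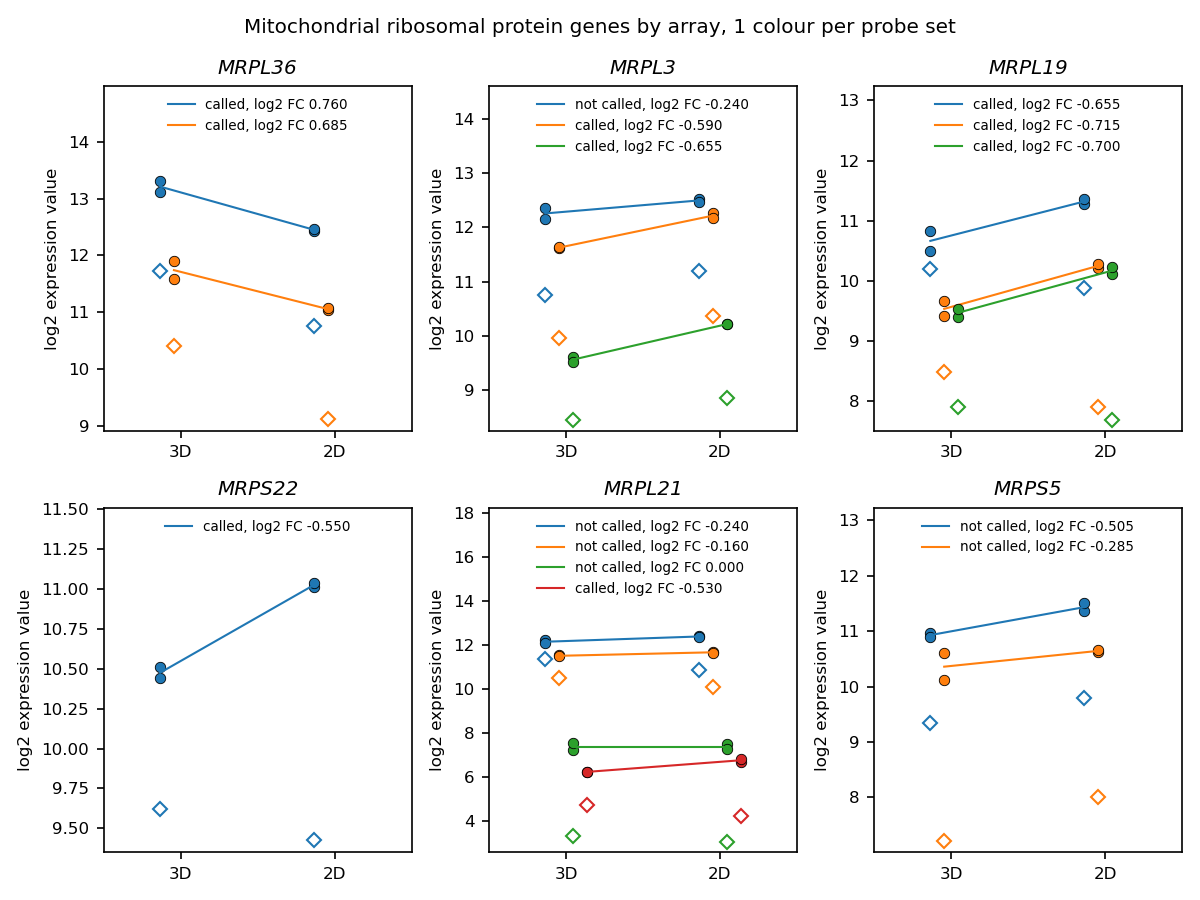
Log2 values by array of the 5 genes with a called probe set and of MRPS5, 3D left and 2D right in each panel, 1 colour per probe set. Filled points are replicates 2 and 3, joined at their means, and open diamonds are replicate 1 on its own lower scale. MRPL36 is higher in 3D on both scales, MRPL3 and MRPS5 are lower on both, and MRPL19, MRPS22 and MRPL21 differ in opposite directions between the scales, apart from 1 MRPL21 probe set at 0.00.

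Among the stalks of the large subunit, which bind translation factors and guide tRNA, none of 4 genes passed, and 3 had an unadjusted limma p under 0.05. MRPL10, which anchors the factor-binding stalk, read 10.22 and 9.94 in 3D, against 9.60 and 9.73 in 2D (0.415, SE 0.131, limma adjusted p = 0.124). MRPL12, the repeated protein of that stalk, known in human cells also to bind the mitochondrial RNA polymerase, read 10.77 and 10.38 in 3D, against 10.64 and 10.75 in 2D, so that the groups overlapped. Its difference was -0.12, with a 95% interval of -0.489 to 0.249. MRPL11, at the base of the stalk, gave -0.305 (limma adjusted p = 0.175) and 0.65 in replicate 1. MRPL1, of the opposite stalk, where spent tRNA leaves, had the widest spread of the family, with 10.02 and 10.78 in 3D against 11.00 and 11.04 in 2D (-0.62, SE 0.239, limma adjusted p = 0.189).

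In the catalytic core and exit tunnel none of 11 genes passed on the brightest probe set (4 at an unadjusted limma p under 0.05), with MRPL3 passing on others as above. The median log2 fold change was -0.12. MRPL47, near the tunnel's exit, had the lowest value, with 10.52 and 10.92 in 3D against 11.32 on both arrays in 2D (-0.60, SE 0.150, limma adjusted p = 0.0732), and a replicate 1 difference of 0.96. MRPL2, a core protein that binds rRNA next to the catalytic centre, was the highest, with 11.18 and 10.98 in 3D against 10.54 and 10.87 in 2D (0.375, limma adjusted p = 0.196). The 2 groups of neither gene overlapped on these probe sets. MRPL2 differed by -0.05 in replicate 1. Its second, dimmer probe set differed by 0.025, with -0.66 in replicate 1.

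Of the 15 other large-subunit proteins with bacterial relatives, MRPL36 and MRPL19 passed in opposite directions (13.3%, against 7.28% of all genes). The median of the 15 was -0.105, and 5 had an unadjusted limma p under 0.05. MRPL15, an rRNA-binding protein, did not pass, with 11.30 and 11.68 in 3D against 12.05 and 12.09 in 2D (-0.58, SE 0.146, limma adjusted p = 0.0744). All 15 differed by more than 0 in replicate 1. Of the 19 further large-subunit proteins none passed, 4 had an unadjusted limma p under 0.05, and the median was -0.055. MRPL48, of the protuberance at the top of the subunit, read 9.70 on both 3D arrays, against 9.26 and 9.41 in 2D (0.365, limma adjusted p = 0.102). MRPL58, a hydrolase that frees peptides from stalled ribosomes and is built into the large subunit, differed by 0.11 (95% interval -0.145 to 0.365) on the brightest of 5 probe sets, and by -0.077 as their mean.

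In the small subunit the 12 proteins with bacterial relatives had a median of -0.155 and none passed, with 2 at an unadjusted limma p under 0.05. MRPS5, whose bacterial relative lines the entry path of mRNA, lay just outside the threshold, with 10.97 and 10.89 in 3D against 11.36 and 11.51 in 2D (-0.505, SE 0.108, limma adjusted p = 0.0502). It was also lower in replicate 1 (-0.45), and on its second probe set in both scales (-0.285 and -0.78). Its limma adjusted p was 0.0463 without dim probe sets, 0.0466 after a further quantile normalization and 0.0490 with median centring. It was 0.0639 under trend and robust priors, 0.182 with the replicate block and 0.153 to 0.436 with 1 array left out. MRPS2 gave -0.295 (limma adjusted p = 0.248) and -0.19 in replicate 1. MRPS12, which sits at the decoding centre, read 10.89 and 10.73 in 3D, against 10.84 and 10.92 in 2D. The groups of MRPS12 overlapped, with a difference of -0.07 (95% interval -0.337 to 0.197). On its second probe set they did not, with 10.09 and 9.79 in 3D against 10.32 and 10.36 in 2D (-0.40, limma adjusted p = 0.132).

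The 11 further small-subunit proteins had a median of -0.25, and MRPS22 alone passed (9.09%, against 7.28% of all genes). At an unadjusted limma p under 0.05 there were 6 of the 11 (54.5%, against 25.1% of all genes), 4 lower and 2 higher. MRPS31 read 11.93 and 12.29 in 3D, against 12.69 and 12.67 in 2D (-0.57, SE 0.141, limma adjusted p = 0.0720), with 0.77 in replicate 1. MRPS25 lay on the other side, with 11.57 and 11.42 in 3D against 11.02 and 11.09 in 2D (0.44, SE 0.107, limma adjusted p = 0.0694) and 0.20 in replicate 1. On its second probe set the groups overlapped, with a difference of 0.07 (limma adjusted p = 0.837). Between the subunits, the median was -0.06 over 49 genes of the large one and -0.185 over 23 of the small one, and this difference was not tested.

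MRPS18A, MRPS18B and MRPS18C are related copies that descend from a single bacterial protein, the first found in the large subunit and the others in the small one. In the grouping above MRPS18C stands among the proteins with bacterial relatives, and the other copies stand among the further proteins. None of the 3 passed. MRPS18B read 11.73 and 11.66 in 3D, against 11.34 and 11.32 in 2D (0.365, limma adjusted p = 0.0873), with -0.15 in replicate 1. MRPS18C differed by 0.10 (95% interval -0.137 to 0.337) and by 1.10 in replicate 1. MRPS18A differed by 0.085 (95% interval -0.181 to 0.351) and by 0.12 in replicate 1. MRPS30, placed in the large subunit despite its name, gave -0.18 (limma adjusted p = 0.355). MRPS36, now known as a part of the oxoglutarate dehydrogenase complex and counted in neither subunit here, gave -0.19 (limma adjusted p = 0.419). MRPS16 and MRPS21, the brightest genes after MRPL36, differed by 0.105 and -0.215 with limma adjusted p of 0.651 and 0.361.

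Counted by overlap, both 3D values lay below both 2D values for 30 genes (41.1%, against 27.5% of all genes). Both lay above for 15 genes (20.5%, against 25.8% of all genes), and 28 genes overlapped. Of the 58 genes with 2 or more probe sets, 26 were below 0 on every one, 11 were above 0 on every one and 19 had both signs. The others, MRPL21 and MRPL53, had a probe set at 0 and none above. No share of all genes stands beside these counts, and probe sets of a gene may read the same transcript region. Of the 162 probe sets 72 have names that mark probes shared by several transcripts, which can be of different genes, and 5 of the 9 called are among them.

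Replicate 1 ran the other way. On these arrays the difference between the 3' and 5' probe sets was 2.90 in 3D and 2.17 in 2D for actin. For GAPDH it was 1.47 in 3D and 1.67 in 2D. The other 4 arrays gave lower values, 0.57 to 0.89 for actin and 0.16 to 0.40 for GAPDH. As the scales differ, the sizes are not directly comparable. The correlation of the replicate 1 arrays with the other arrays was 0.861 to 0.872 over all probe sets, and 0.888 with each other. In replicate 1, 59 of 73 genes had a difference above 0 (80.8%, against 44.6% of all genes), and the median was 0.39, against -0.11 over all genes. The sign of 32 genes was the same on both scales, 22 above 0 and 10 below, and the sign of 40 was opposite. Of these, 36 were below 0 on replicates 2 and 3 and above 0 in replicate 1. The replicate 1 difference also moved with brightness: in 4 equal bins of the mean level, all genes had medians of -0.30, -0.235, -0.08 and 0.06 from dim to bright. Of the members 68 lie in the brightest bin, in which 53.2% of all genes were above 0. The part of brightness and of the 3' to 5' differences in the members' replicate 1 values was not tested. Of the 6 genes plotted by array, MRPL36, MRPL3 and MRPS5 kept 1 direction on every probe set in both scales.

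**Figure D3:**
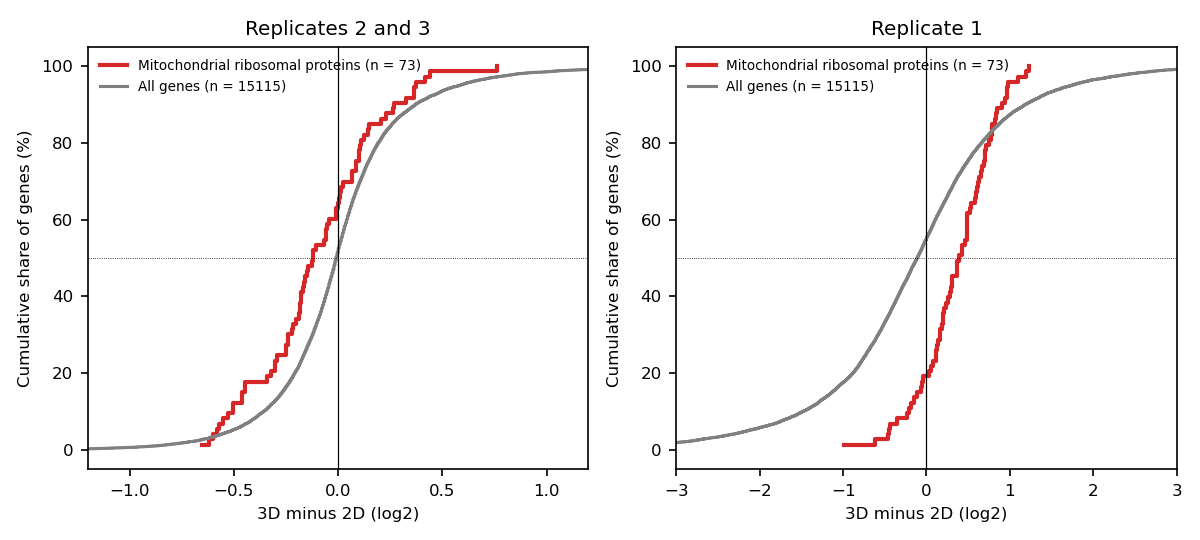
Cumulative share of genes (%) against the log2 difference, 3D minus 2D, for the 73 members and for all 15115 genes, on replicates 2 and 3 and in replicate 1. The member curve lies left of all genes at its median on replicates 2 and 3 (-0.12 against -0.01) and right of it in replicate 1 (0.39 against -0.11).

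The 3D arrays differed from each other more than the 2D arrays did. The median size of the difference between replicates 2 and 3 was 0.18 in 3D and 0.08 in 2D for the members, beside 0.15 and 0.10 for all genes. In 5 members 3D replicate 2 lay at least 0.5 below 3D replicate 3 (6.85%, against 3.24% of all genes). In 0 members it lay as far above, against 3.00% of all genes. The 5 with the lower replicate 2 were MRPL1, MRPS28, MRPL33, MRPS35 and MRPL22. MRPS28 read 10.81 and 11.38 in 3D against 11.53 and 11.55 in 2D, while the 2D arrays of these 5 genes differed by 0.08 at most. The poly-A spike-in controls, added before labelling, averaged 9.83 and 8.98 on 3D replicates 2 and 3, against 8.81 and 8.86 on 2D replicates 2 and 3. The difference between the 3' and 5' probe sets of GAPDH was 0.31 and 0.40 in 3D, against 0.20 and 0.16 in 2D, and that of actin 0.57 and 0.76 in 3D, against 0.71 and 0.89 in 2D. The part of these in the results was not tested.

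**Figure D4:**
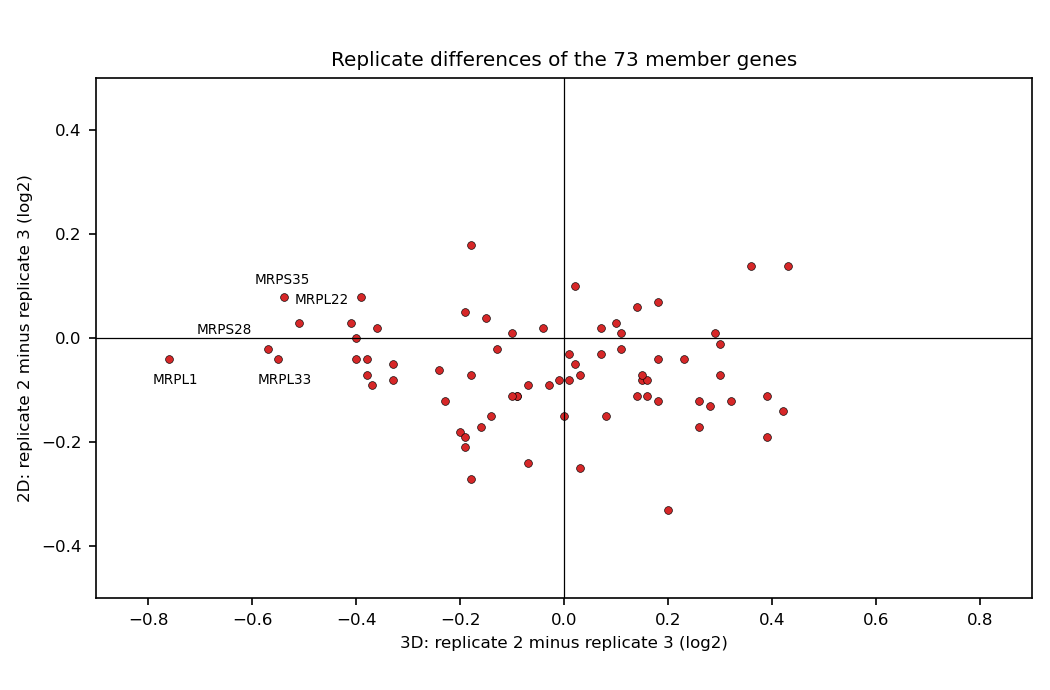
Replicate 2 minus replicate 3 (log2) in 3D, on the horizontal axis, and in 2D, on the vertical axis, 1 point per member gene. The points reach from -0.76 for MRPL1 along the 3D axis and stay within 0.33 of 0 along the 2D axis. The 5 named genes are those with 3D replicate 2 at least 0.5 below 3D replicate 3.

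Genes that work with the mitochondrial ribosome were read from the same test, beside 7.28% called among all genes. The 5 measured ribosomal proteins that carry other names, DAP3, AURKAIP1, CHCHD1, PTCD3 and GADD45GIP1, ranged from -0.29 to -0.04. None of these 5 passed with limma, with 2 at an unadjusted p under 0.05. Of 14 mitochondrial translation factors 1 fell, GFM2, which helps to recycle the ribosome, with 8.82 and 8.83 in 3D against 9.31 and 9.30 in 2D (-0.48, limma adjusted p = 0.0435). In replicate 1 GFM2 differed by 0.50. The median of the 14 was -0.258 on replicates 2 and 3, and 0.17 in replicate 1.

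Of 19 assembly genes 3 fell and none rose, with a median of -0.045. They were the GTPase gene NOA1 (-0.62, limma adjusted p = 0.0295), the RNA-binding FASTKD2 (-0.495, limma adjusted p = 0.0439) and the helicase gene DHX30 (-0.59, limma adjusted p = 0.0454). All 3 were also lower in replicate 1, by -0.26, -0.55 and -1.23. Of 18 mitochondrial aminoacyl-tRNA synthetase and amidotransferase genes, which charge tRNA, RARS2 rose and the median was 0.045. RARS2, for arginine, read 10.47 and 10.38 in 3D, against 9.34 and 9.40 in 2D, a 2.08-fold difference (limma adjusted p = 0.00911), and differed by 1.59 in replicate 1.

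Of 16 genes for mitochondrial DNA expression and its nuclear regulators 3 fell, with a median of -0.26. Beside MYC, a transcription factor that drives growth genes (-1.17, limma adjusted p = 0.0104), they were SSBP1, which coats single-stranded mitochondrial DNA (-0.575, limma adjusted p = 0.0295), and PPRC1, a coactivator of nuclear genes for mitochondria (-0.51, limma adjusted p = 0.0444). All 3 were lower in replicate 1 too, by -2.81, -0.42 and -1.18.

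The 62 subunits of the respiratory chain and ATP synthase had a median of 0.135, where that of the mitochondrial ribosomal proteins was -0.12. One of the 62 rose, SDHC, a membrane anchor of succinate dehydrogenase (0.545, limma adjusted p = 0.0357). None of 57 cytosolic ribosomal protein genes passed with limma, with 3 at an unadjusted p under 0.05 and a median of 0.025. In replicate 1 the medians were 0.65 for the respiratory chain and 0.37 for the cytosolic ribosome, beside 0.39 for the mitochondrial one. The differences between lists were not tested.

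**Figure D5:**
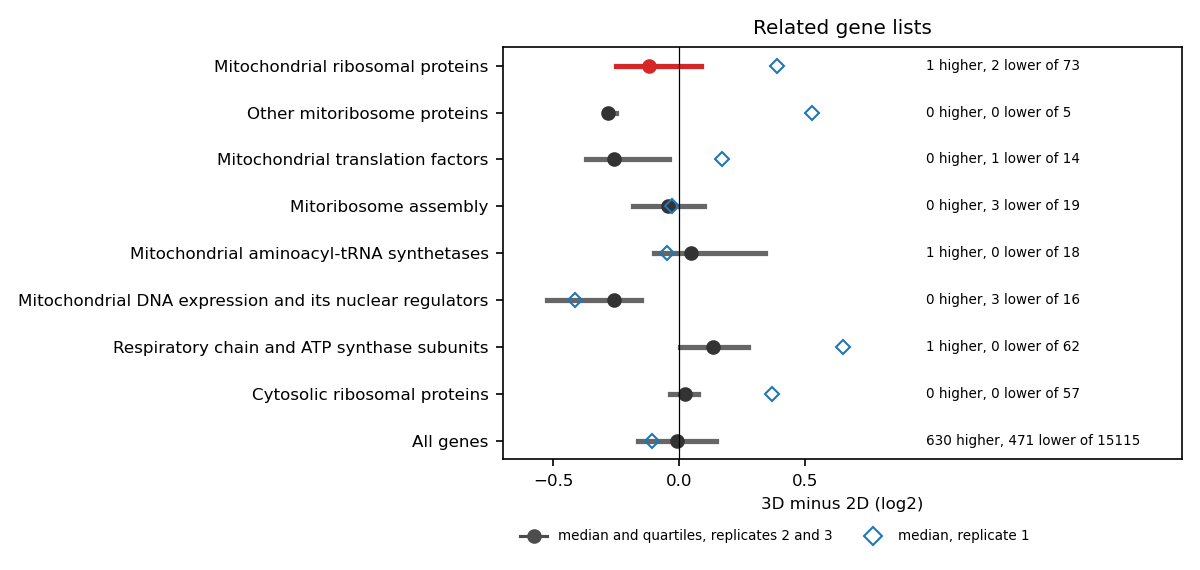
Median log2 difference, 3D minus 2D, with quartiles on replicates 2 and 3 (filled points and bars) and the replicate 1 median (open diamonds) for the mitochondrial ribosomal proteins, 7 related lists and all genes, with counts called by limma at right. The mitochondrial ribosomal proteins lie at -0.12 and the respiratory chain at 0.135, while both are above 0 in replicate 1, at 0.39 and 0.65.

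In RefSeq's table for the dog assembly UU_Cfam_GSD_1.0, the gene next to MRPL36 is NDUFS6, a subunit of respiratory complex I. The neighbours of the 5 genes with a called probe set were looked up after their values were seen. NDUFS6 read 11.99 and 11.73 in 3D, against 11.46 and 11.57 in 2D, and did not pass (0.345, SE 0.126, limma adjusted p = 0.171). In replicate 1 it differed by 0.89, beside 0.98 for MRPL36. Of the 8 protein-coding neighbours with a probe set, only EVA1A, beside MRPL19, passed, where 7.28% of all genes did. It read 8.92 and 9.25 in 3D against 9.73 and 9.82 in 2D (-0.69, limma adjusted p = 0.0431). In replicate 1 EVA1A differed by -0.04 and MRPL19 by 0.31. On replicates 2 and 3 GCFC2, EVA1A and NDUFS6 differed in the direction of the member beside them. CPT1A, NUDT16, CPNE4, LPCAT1 and COPB2 differed in the other direction.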

How the data were processed

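The deposited table holds log2 values per probe set for 6 arrays, made by the authors with RMA and limma, per the submitters' processing notes; versions, chip definition, genome build and the making of the replicate 1 columns are not given in those sources. Of 43035 probe sets 111 controls were left out. The platform annotation gave 1 symbol for 29254 probe sets, several for 439 and none for 13231. Entrez IDs of 67 of 73 member genes were found in the RefSeq table of UU_Cfam_GSD_1.0, with 0 changed symbols. Each gene took the values of its brightest probe set, by the mean over the 4 arrays of replicates 2 and 3.

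3D minus 2D was fitted on these 4 arrays in R 4.3.3 (limma 3.58.1, lmFit then eBayes), two-sided, Benjamini-Hochberg over 42924 probe sets, threshold 0.05, without a filter on level, since the table has no detection calls. The fit was tested on simulated data. The number of arrays (2 residual degrees of freedom) limits the precision. Tables were joined in Python 3.11.15 (numpy 2.4.6, pandas 2.3.3) and drawn with matplotlib 3.10.9.

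Named members were those with a called probe set, the 6 highest and 6 lowest fold changes, the 3 brightest and 12 fixed genes, and for other lists up to 3 called genes with the smallest adjusted p. Members, lists, named genes and the choice of arrays were set with earlier results of these data known, and the grouping by place in the ribosome after the members' values were seen. Alternatives were the replicate block, all 6 arrays, each array left out, 2 further normalizations, trend and robust priors, a filter on dim probe sets and other ways to represent a gene.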

Additional observations from a re-analysis of the deposited data

How the results depend on the processing

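The calls depended on the arrays and the model. With the replicate block, limma called 0 probe sets, 0 member probe sets and 0 member genes. At an unadjusted limma p under 0.05 there were 8325 of 42924, 33 of 162 and 17 of 73. No share of all genes in that fit stands beside the last count. For replicates 2 and 3, the deviations of same-numbered arrays from their group means had a correlation of 0.001 over probe sets, and no label says that a number marks a shared batch, so these numbers were not taken to pair the samples, although both replicate 1 arrays stand apart together. With all 6 arrays, limma called 0 of each kind without a block (105, 0 and 0 at an unadjusted p under 0.05) and 0 of each kind with the block (2723, 4 and 1), while the median of the member genes was 0.0667 in both. With 1 array left out (the lone array of a group is assumed to vary like the others), the median of the member genes was -0.11 to -0.085. Both additions were chosen after seeing the data: a limma adjusted p under 0.1 gave 11 of 73 member genes, 3 higher and 8 lower, against 13.9% of all genes, and the replicate 1 pair alone gave a median of 0.50 relative to all genes. The remaining alternatives gave 2 to 4 called member genes and 8 to 10 called member probe sets. No share of all genes or probe sets in the same fits stands beside these counts, so they describe the members alone. With all 6 arrays, with and without the block, 17 of 73 genes turned above 0, and those among the 26 genes named by rule, none called on the brightest probe set, were MRPL21 0.0033, MRPS12 0.15, MRPL11 0.0133, MRPS30 0.0333 and MRPS36 0.08. As the mean of probe sets 7 genes changed sign, of those named by rule MRPS16 with -0.123 and MRPL58 with -0.077. With 1 array left out 3 to 10 genes changed sign, and of those named MRPS12 ran from -0.15 to 0.01 and MRPL12 from -0.315 to 0.075. The cause of these changes was not tested. The median of all probe sets differed by 0.02 at most between the 4 arrays, and the called members kept their direction with median centring.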
